A study of Mus musculus with 12 samples.

Results

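The genes described here are 34 mouse genes of glycolysis and of the response to low oxygen, chosen by symbol from a fixed list and followed across all 12 libraries of a study of RAW264.7 cells, a mouse macrophage-like line. All 34 were found among the 54232 genes of the count table, and all 34 passed the filter on low counts that left 12771 genes for testing. Egln3 and P4ha2 passed it with at most 16 and 24 counts in any library, Egln3 through untreated Socs1-/- alone and P4ha2 through wild type alone. The 3 genotypes were wild type, Ing4-/- (Ing4 encodes a chromatin-binding protein of the inhibitor of growth family) and Socs1-/- (Socs1 encodes a suppressor of cytokine signalling). Cells of each genotype were left untreated or were given lipopolysaccharide (LPS, a bacterial cell-wall component that activates macrophages) at 100 ng/ml for 3 h. Each of the 6 groups holds 2 libraries. Whether the libraries of a group were grown separately, or from 1 knockout clone, is not in the labels. The p-values therefore refer to variation among these libraries, which may be technical.

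Glycolysis splits glucose into pyruvate through a fixed series of enzymes, and lactate dehydrogenase and a lactate carrier let the pathway run without mitochondria. The transcription factor HIF-1, whose alpha subunit is encoded by Hif1a, switches on glucose transporters, glycolytic enzymes and adaptation genes when oxygen is short and prolyl hydroxylases of the Egln family no longer mark it for destruction. In macrophages LPS is known to raise Hif1a transcription and glucose use also at normal oxygen. The cultures were not labelled as hypoxic, and the measurements are of mRNA, not of protein or of metabolic flux.

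Libraries held 17250815 to 24377950 counts. One of them stood apart: the first LPS-treated Socs1-/- library lay at -16.2 on the first principal component, against 62.4 to 74.4 for the other LPS-treated libraries, and the summed level of 7 LPS-response anchors (Tnf, Il1b, Nfkbia, Nfkbiz, Cxcl2, Socs3 and Ccl4) was 4825 CPM (counts scaled to library size) there against 13245 to 27158 CPM. One anchor did not share this, since Nfkbiz, at 1016 CPM, was as high there as in its partner (1000.4 CPM) and above the other 4 LPS-treated libraries (450.2 to 803 CPM). Results that rest on it are given with and without it. The 12 macrophage markers summed to 12556 to 23250 CPM, with the highest sums in the second libraries of Ing4-/- (23143 and 23250 CPM). Lyz2 alone had 17000 and 15435 CPM in those libraries, against 6612 to 9707 CPM elsewhere, and the other markers did not all follow it. The neutrophil markers, the next highest of the other lineages, reached 3.23 CPM, and the epithelial ones were at 0 in all libraries. Neither targeted gene was absent from its knockout: Ing4 had 2 to 10 counts in wild type and 6 to 29 in Ing4-/-. Socs1 had 67 and 127 counts in LPS-treated Socs1-/-, fewer than the 148 to 185 of the other LPS-treated libraries, and 7 in each untreated Socs1-/- library against 4 to 12 in the other untreated ones. No source used here says which parts were deleted, and genotypes are named as labelled.

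HIF binds the core ACGTG or GCGTG. In the 250 bases before and 50 bases after each RefSeq start (GRCm38.p6), at least 1 core on either strand was found for 29 of the 32 members with an entry (90.6%), against 46.7% of 27025 genes with an entry. Members' windows held a median of 20.5 CG dinucleotides against 7 in all windows, and both cores contain CG. The palindrome CACGTG, which holds ACGTG on both strands and is also the E-box, occurred for 5 of the 32 members (15.6%) against 8.09% of genes. A match describes letters only and does not show binding. The following 60-base stretches lie upstream of the start, are read 5′ to 3′ on the gene's strand and carry the cores in capitals (CACGT and CACGC are the cores on the other strand). They are shown for the transporter, hexokinase and HIF genes with the clearest LPS response, for Pdk1 as a gene with lower levels after LPS, for Ldha as an abundant enzyme that moved little, and for Bnip3 as one of the genes that differed most between libraries of wild type.
Slc2a1, chr4:119108668-119108727, plus strand: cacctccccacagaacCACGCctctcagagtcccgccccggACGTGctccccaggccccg
Hk2, chr6:82774475-82774534, minus strand: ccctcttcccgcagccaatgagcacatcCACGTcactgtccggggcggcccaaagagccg
Hif1a, chr12:73907704-73907763, plus strand: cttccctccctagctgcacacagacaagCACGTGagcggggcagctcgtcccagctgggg
Pdk1, chr2:71873118-71873177, plus strand: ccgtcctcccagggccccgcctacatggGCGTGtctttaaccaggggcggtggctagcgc
Ldha, chr7:46845733-46845792, plus strand: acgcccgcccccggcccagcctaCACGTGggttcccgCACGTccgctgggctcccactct
Bnip3, chr7:138909583-138909642, minus strand: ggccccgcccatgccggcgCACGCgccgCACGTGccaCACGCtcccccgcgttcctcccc
The stretches show that genes with fitted LPS changes of opposite sign (Slc2a1 and Pdk1), and a gene that moved little (Ldha), all hold cores close to the start.

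The members covered a wide range of levels. Together they held 1.13% to 2.09% of all counts. Per kilobase of exon, the mean over the 12 libraries was highest for the pyruvate kinase gene Pkm (866 CPM per kb), the lactate dehydrogenase gene Ldha (636), the aldolase gene Aldoa (605) and the cytokine gene Mif (495). The other enzymes of the main trunk followed, from Tpi1 (291 CPM per kb) through Gapdh (246), Pgk1 (222), Eno1 (154) and Gpi1 (118) to Pgam1 (81.6). The glucose transporter Slc2a1 (81.2 CPM per kb) stood beside Pgam1, while the gating enzymes of the upper pathway were lower, with 34.3 for Pfkl, 32.6 for Hk2, 18.3 for Hk1 and 15.8 for Pfkp. Minor isozymes were at the bottom, with 3.02 CPM per kb for Eno2, 0.065 for Egln3 and 0.034 for P4ha2. Gapdh, Ldha, Pgk1, Tpi1 and other trunk genes have near-identical processed copies in the genome, and Pkm shares 15.3% of its exon bases with Gm49759 on the same strand (430 to 1162 counts), so their absolute levels are uncertain. The setting of strand in counting is not given, and 22.3% of the exon bases of Bnip3 lie antisense to Gm45507, which had at most 1 count. Of the exon bases of Pfkp, 5.58% lie antisense to Pitrm1, which had 1831 to 3244 counts. Whether this overlap adds to the level of Pfkp was not tested.

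After LPS, members were called at about the share of all genes, and several of the calls depended on single libraries. The members that rose include genes of glucose entry, of upper-pathway control points, of lactate export and of the HIF response. Most trunk enzymes stayed within the spread between libraries. On the mean of the 3 genotypes, 9 members rose and 1 fell (edgeR quasi-likelihood test, adjusted p under 0.05), which is 29.4% of members beside 33.2% of all genes tested. The share of members called was thus near the background, with 26.5% rising and 2.94% falling beside 17.9% and 15.2% of all genes. The median change of the members was 0.16 (log2) against 0.00 for all genes, and it ranged from 0.07 without the second LPS-treated wild-type library to 0.25 without the second untreated one. Without the first LPS-treated Socs1-/- library 9 rose (26.5%) and 3 fell (8.82%), beside 41.7% of all genes called, 21.4% rising and 20.3% falling. With same-numbered libraries of a genotype treated as pairs, 15 rose and 6 fell, beside 51.7% of all genes. The labels state no pairs, and this pairing was taken from correlations in these same counts. With upper-quartile scaling, which shifts the median of all genes to -0.12, 7 rose and 4 fell, beside 35.9% of all genes. That scaling ended the calls of Pfkp and Slc16a3 and added Hk1, Pdk1 and Kdm3a as falling.

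Within single genotypes, 1 member rose in wild type (Slc2a1) beside 2.89% of all genes, 3 rose in Ing4-/- (Slc2a1, Hk2 and Hif1a) beside 8.02%, and 1 rose in Socs1-/- (Slc2a1) beside 1.98%. Without the first LPS-treated Socs1-/- library these became 4 in wild type (with Hk2, Hif1a and P4ha1; 14.5% of all genes), 5 rising and 1 falling in Ing4-/- (with Pfkfb3 and P4ha1, and Hk1 falling; 20.4%), and 5 in Socs1-/- (Hk2, Hif1a, Pfkfb3 and P4ha1 with Slc2a1; 15.8%), which rests on 1 LPS library. Leaving out the second LPS-treated Socs1-/- library instead raised the calls over all genes in wild type and Ing4-/- to about the same extent. In those genotypes the gain over all genes is thus not particular to the deviating library. Paired within genotype, 5 members rose in wild type (14.2% of all genes), 9 rose and 1 fell in Ing4-/- (27.2%), and 1 rose in Socs1-/- (6.02%). No member's LPS response differed between a knockout and wild type at an adjusted p under 0.05 in edgeR (0 of 34 for Ing4-/- and 0 of 34 for Socs1-/-, with 0 and 0 at an unadjusted p under 0.05 and 0 and 0 in DESeq2). Of all genes 0.0% were called in both, and 0.415% and 0.799% had an unadjusted p under 0.05.

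**Figure D1:**
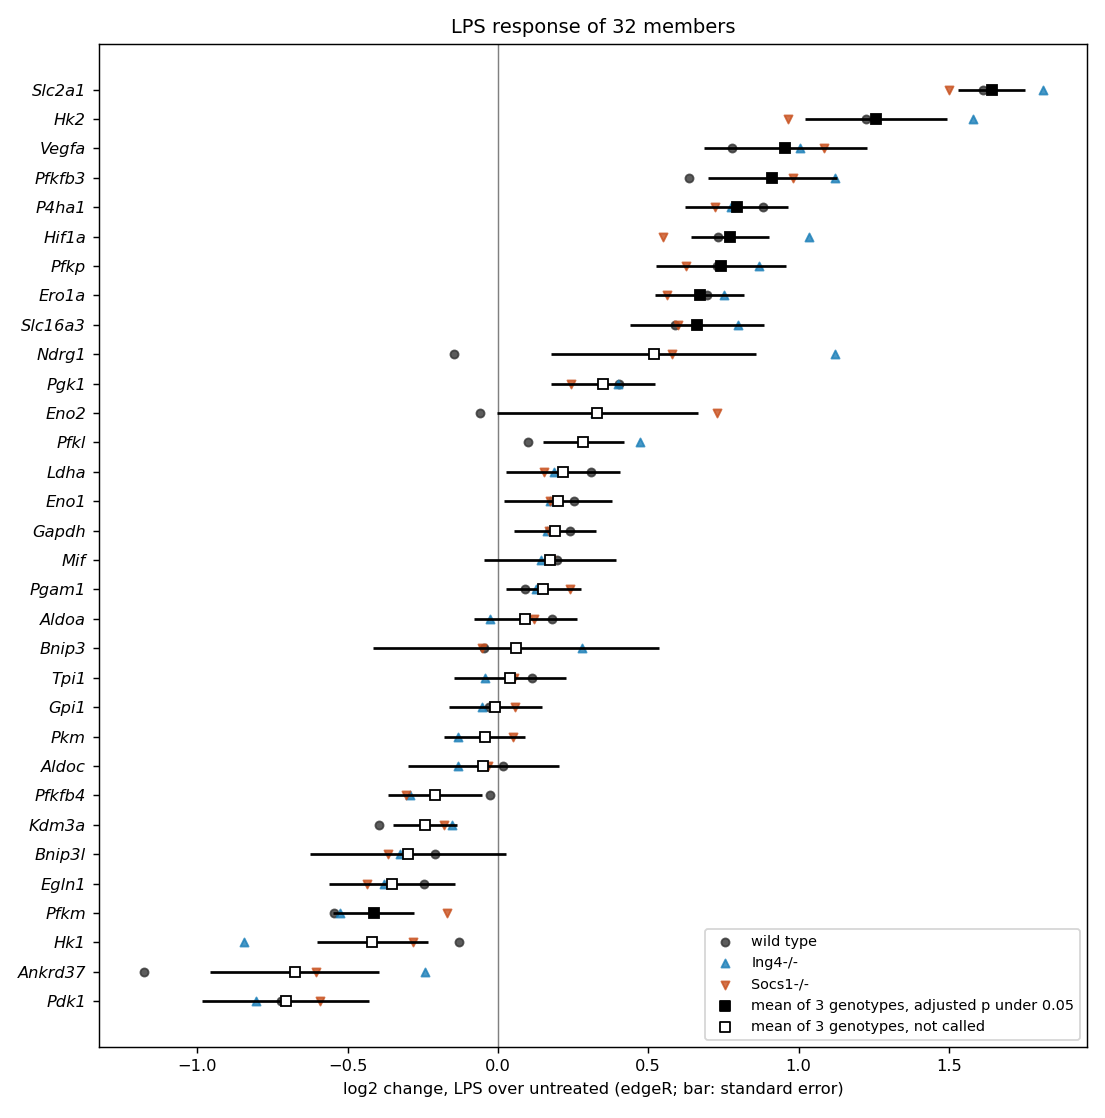
Fitted log2 change from untreated to LPS for 32 members (Egln3 and P4ha2, near 0 counts, are left out), with coloured points for the 3 genotypes and squares with standard errors for their mean. Filled squares mark the 10 members with an adjusted p under 0.05, from Slc2a1 at 1.64 to Pfkm at -0.41.

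Slc2a1 encodes GLUT1, the main glucose carrier of macrophages (chromosome 4, 119108711 to 119137983, plus strand, GRCm38). Its untreated levels were 165 and 222 CPM (wild type), 112 and 110 CPM (Ing4-/-) and 122 and 98.7 CPM (Socs1-/-). With LPS the values were 556 and 628 CPM, 364 and 416 CPM, and 320 and 304 CPM in the same order. Every LPS-treated library lay above every untreated one, which only Hif1a among the other members also showed (2 of 34 members, beside 7.7% of all genes). The rise was 1.64 on the log2 scale (SE 0.11, edgeR adjusted p = 4.06e-05) on the mean of the genotypes, and 1.61 (SE 0.19, adjusted p = 0.00437) in wild type, 1.81 (SE 0.19, adjusted p = 0.00207) in Ing4-/- and 1.5 (SE 0.19, adjusted p = 0.00581) in Socs1-/-. In the deviating Socs1-/- library (320 CPM) it was as high as in its partner. Leaving out the first untreated wild-type library ended the wild-type call (adjusted p = 0.0822), and leaving out the second untreated Socs1-/- library ended the Socs1-/- call (adjusted p = 0.0733). The authors' deposited table for wild type lists Slc2a1 with a log2 change of 1.57 (their adjusted p = 5.99e-13) and, of the other members, Hk2 with 1.08 (0.0343), among 867 genes.

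The hexokinases trap glucose as glucose 6-phosphate. Hk2, the inducible isozyme, had untreated levels of 123 and 123 CPM (wild type), 110 and 90.8 CPM (Ing4-/-) and 112 and 131 CPM (Socs1-/-). With LPS the values were 277 and 297 CPM (wild type) and 302 and 299.6 CPM (Ing4-/-), but 116 and 358 CPM in the 2 Socs1-/- libraries. The groups were apart in wild type and Ing4-/- and overlapped in Socs1-/-, where the first library stayed at the untreated level. Hk2 rose by 1.26 on the mean (SE 0.24, edgeR adjusted p = 0.00487) and by 1.58 in Ing4-/- (SE 0.41, adjusted p = 0.0496). The Ing4-/- call was lost (adjusted p 0.0747 to 0.22) when any library outside LPS-treated Socs1-/- was left out. In Socs1-/- the change was 0.96 (adjusted p = 0.271) with both LPS libraries, 1.56 (adjusted p = 0.000919) without the first and -0.07 (adjusted p = 0.951) without the second, and it was 1.23 (adjusted p = 0.13) in wild type, or 0.00138 as adjusted p without the first LPS-treated Socs1-/- library.

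Hk1, the constitutive isozyme, did not share that rise. Its untreated levels of 176 and 191 CPM (wild type), 160 and 206 CPM (Ing4-/-) and 180 and 150 CPM (Socs1-/-) compared with 144 and 192, 86 and 118, and 181 and 89.3 CPM after LPS. Only in Ing4-/- were the groups apart. On the mean it changed by -0.42 (adjusted p = 0.113), and it fell by 0.62 (adjusted p = 0.00646) without the first LPS-treated Socs1-/- library and by 0.45 (adjusted p = 0.0148) with paired libraries. Per length, Hk2 made up 38.6% to 55.5% of Hk1 plus Hk2 in the 6 untreated libraries (median 48.7%) and 68.9% to 85.1% in 5 LPS-treated ones, while the first LPS-treated Socs1-/- library, at 47.8%, lay among the untreated values. In 5 of 6 LPS-treated libraries the inducible isozyme thus outnumbered the constitutive one per length.

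**Figure D2:**
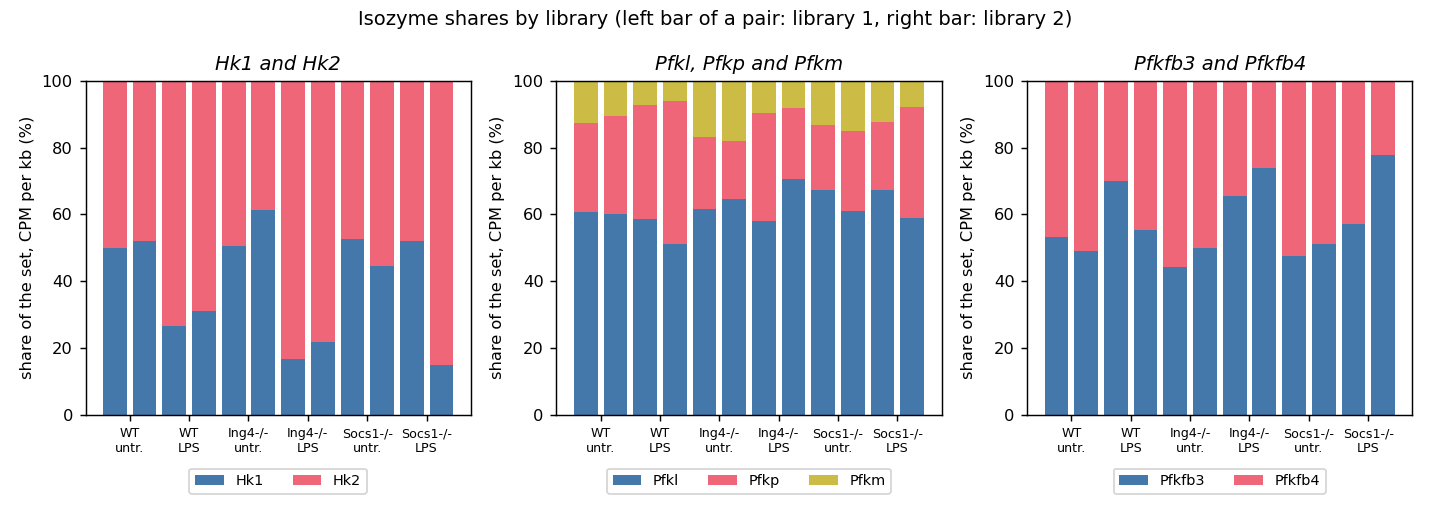
Share of each isozyme in its set, from CPM per kilobase of exon, in each of the 12 libraries (stacked bars, 100% in all) for the hexokinases, the phosphofructokinases and the 2 bifunctional regulators. Hk2 rises from 38.6% to 55.5% untreated to 68.9% or more after LPS in all but 1 library, and Pfkfb3 exceeds its untreated range in all 6 LPS-treated libraries.

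Phosphofructokinase commits sugar to glycolysis, and 2 of its 3 subunit genes changed in opposite directions. Pfkp rose by 0.74 (SE 0.22, adjusted p = 0.0281) from 175 and 272 CPM to 266 and 477 CPM in wild type, from 137 and 91.5 to 247 and 172 CPM in Ing4-/- and from 136 and 139 to 160 and 264 CPM in Socs1-/-. Each knockout's groups were apart, and those of wild type overlapped. Pfkm, the muscle-type subunit, fell by 0.41 (adjusted p = 0.0435) from 20.4 to 26.2 CPM over the untreated libraries to 13.9 to 23.8 CPM after LPS. Its 5 lower LPS values, up to 18.4 CPM, lay below all untreated ones. Pfkl, the most abundant of the 3 per length, changed by 0.28 (adjusted p = 0.13), and it rose by 0.29 (adjusted p = 0.0316) with paired libraries. Its share of the set was 60.03% to 67.3% untreated and 51.1% to 70.5% after LPS. Pfkm went from 10.5% to 17.9% of the set to 6.03% to 12.2%, and Pfkp from 17.5% to 29.5% to 20.4% to 42.9%. The calls depended on single libraries: that of Pfkp was lost in 7 and that of Pfkm in 11 of 12 fits that left out 1 library (adjusted p up to 0.0766 and 0.112), and upper-quartile scaling took Pfkp to an adjusted p of 0.0541. With paired libraries both were called (adjusted p = 0.00265 for Pfkp and 0.0133 for Pfkm).

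The enzymes between aldolase and lactate dehydrogenase moved little. None of the 7 lower-pathway genes (Gapdh, Pgk1, Pgam1, Eno1, Eno2, Pkm and Ldha) was called on the mean, with 0 at an unadjusted p under 0.05 (44.6% of all genes), 0 in DESeq2 and a median change of 0.20. Ldha, which turns pyruvate into lactate, shows how far libraries of one group differ: the levels were 2015 and 2889 CPM untreated and 2375 and 3701 CPM after LPS in wild type, 1797 and 1362 against 1873 and 1726 CPM in Ing4-/-, and 2135 and 1418 against 2326 and 1630 CPM in Socs1-/-. In each genotype and for each library number the LPS value was the higher one, and yet groups overlapped in all 3. With libraries paired within genotype, 4 of the 7 were called on the mean, beside 51.7% of all genes. The rises were small: Pgk1 by 0.36 (edgeR adjusted p = 0.00677), Ldha by 0.22 (0.0211), Eno1 by 0.22 (0.0282) and Gapdh by 0.19 (0.0169). These are changes relative to TMM scaling, and with upper-quartile scaling the median of all genes lies at -0.12. Of the upper-pathway genes without isozyme changes, Gpi1 (-0.01), Tpi1 (0.04), Aldoa (0.09) and Aldoc (-0.05) had adjusted p of 0.716 to 0.974.

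Among regulators and lactate export, Pfkfb3, whose enzyme makes the activator fructose 2,6-bisphosphate, rose by 0.91 (SE 0.21, edgeR adjusted p = 0.0122). It went from 38.4 and 46.5 to 68.7 and 63.2 CPM in wild type, from 35.7 and 39.5 to 67.3 and 96.1 CPM in Ing4-/-, and from 31.8 and 43.7 to 43.1 and 106 CPM in Socs1-/-. The sole overlap was in Socs1-/-, where the deviating library (43.1 CPM) lay just under the higher untreated one. Its relative Pfkfb4 changed by -0.21 (adjusted p = 0.338), so that per length Pfkfb3 made up 44.2% to 53.2% of the pair untreated and 55.4% to 78.0% after LPS. Pdk1, which restrains entry of pyruvate into mitochondria, went from 98.8 and 141 to 49.0 and 96.5 CPM in wild type, from 95.2 and 90.5 to 44.5 and 61.8 CPM in Ing4-/-, and from 123 and 84.0 to 101 and 36.5 CPM in Socs1-/-. The change of -0.71 was not called (adjusted p = 0.0817); it fell by 1.01 (adjusted p = 0.00609) without the first LPS-treated Socs1-/- library and by 0.78 (adjusted p = 0.00775) with paired libraries. The lactate carrier gene Slc16a3 (MCT4) rose by 0.66 (adjusted p = 0.0491), from 116 to 349 CPM untreated to 232 to 510 CPM after LPS. That call was lost in 9 of 12 fits that left out 1 library (adjusted p up to 0.125) and with upper-quartile scaling (0.53, adjusted p = 0.096), and kept with paired libraries (0.67, adjusted p = 0.00443).

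Hif1a (chromosome 12) rose on the mean of the genotypes and in Ing4-/-. The untreated values were 152 and 120 CPM (wild type), 160 and 163 CPM (Ing4-/-) and 155 and 152 CPM (Socs1-/-). With LPS the values were 241 and 210.3 CPM, 283 and 378 CPM, and 182 and 267 CPM. All 6 LPS values lay above all 6 untreated ones, and Ing4-/- held the highest pair. The change was 0.77 on the mean (SE 0.13, edgeR adjusted p = 0.00292), 1.03 in Ing4-/- (SE 0.22, adjusted p = 0.0304), 0.73 in wild type (adjusted p = 0.106; 0.0296 without the first LPS-treated Socs1-/- library) and 0.55 in Socs1-/- (adjusted p = 0.259; 0.0400 without it). The Ing4-/- call was lost, at adjusted p of 0.0513 to 0.157, when any library outside LPS-treated Socs1-/- was left out. Neither oxygen sensor was called: Egln1 changed by -0.35 (adjusted p = 0.224), and Egln3 had 0 to 5 counts in wild type, 0 or 1 in Ing4-/- and 5 to 16 in Socs1-/-, too few to read a response.

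**Figure D3:**
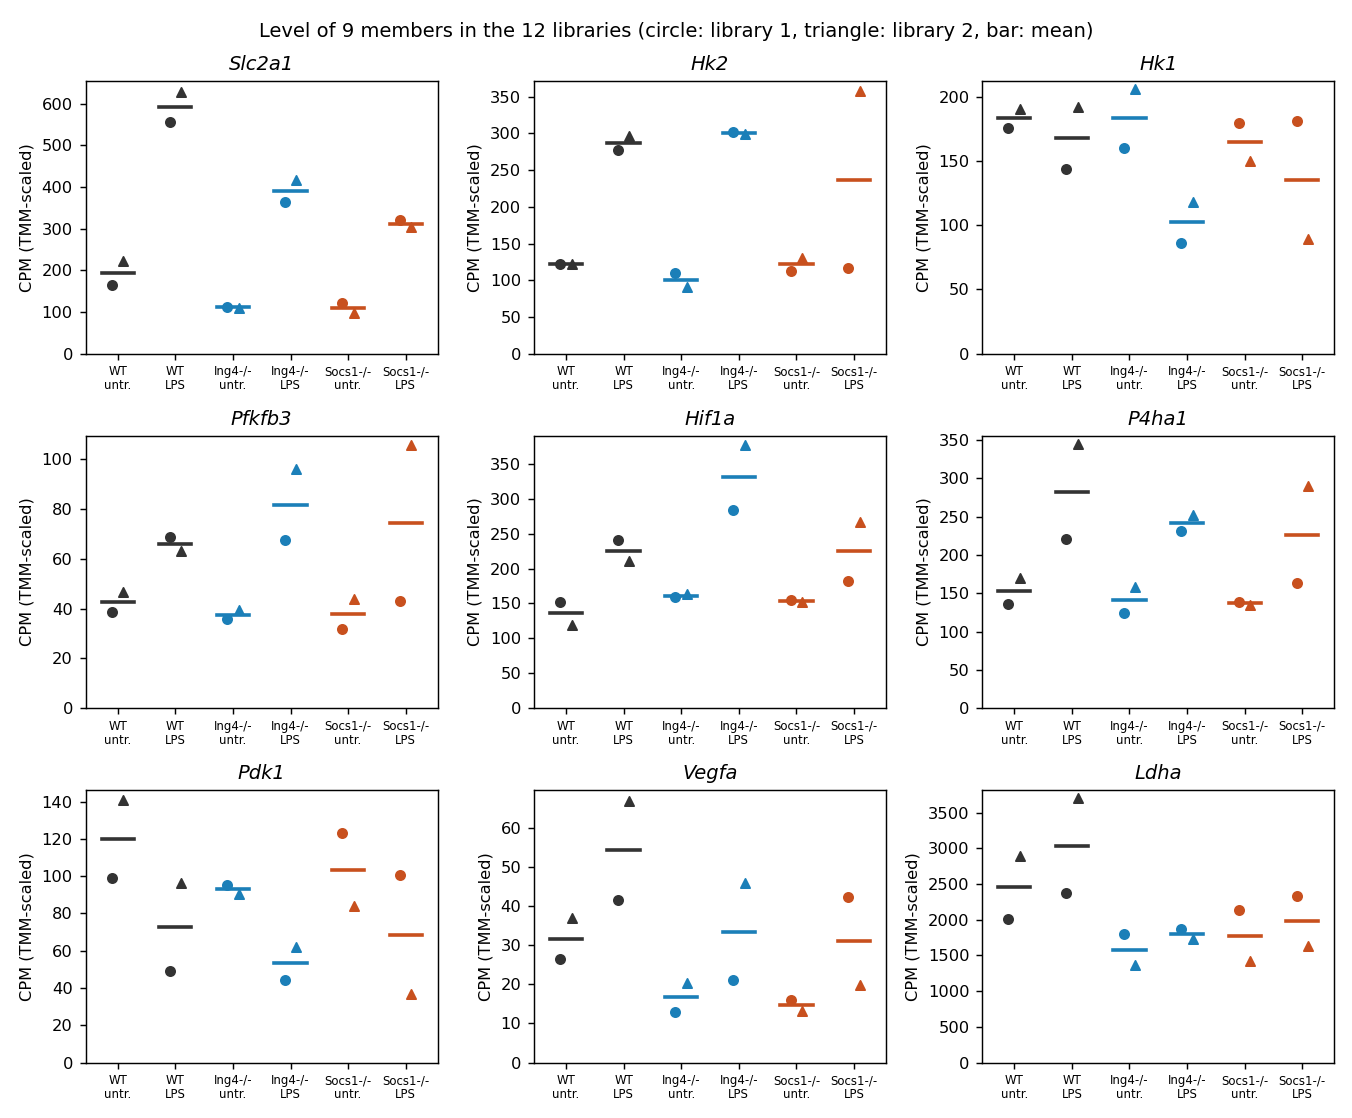
Level of 9 members in CPM (linear axes from 0) in the 12 libraries, with circles for the first and triangles for the second library of a group and a bar for their mean. Slc2a1 and Hif1a are higher in all 6 LPS-treated libraries than in all 6 untreated ones, whereas in Ldha the 2 libraries of wild type differ more than the treatments do.

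Of the 10 remaining HIF targets, 3 rose on the mean, a share near the 33.2% of all genes called. P4ha1, a collagen prolyl hydroxylase subunit, rose by 0.79 (SE 0.17, edgeR adjusted p = 0.00869). The oxidative folding gene Ero1a rose by 0.67 (SE 0.15, adjusted p = 0.00927), and the angiogenic factor gene Vegfa by 0.96 (SE 0.27, adjusted p = 0.0258). P4ha1 went from 124 to 170 CPM over the untreated libraries to 163 to 345 CPM after LPS, where the lowest value was that of the deviating Socs1-/- library. Ero1a went from 71.3 to 127 CPM to 104 to 210 CPM. Vegfa went from 26.4 and 36.8 to 41.5 and 66.9 CPM in wild type, from 13.0 and 20.4 to 21.2 and 45.7 CPM in Ing4-/-, and from 16.05 and 13.2 to 42.3 and 19.8 CPM in Socs1-/-. Its rise in Socs1-/- came mainly from the deviating library: 1.08 (adjusted p = 0.289) with it and 0.44 (adjusted p = 0.605) without it. Its call on the mean was lost in 6 of 12 fits that left out 1 library (adjusted p up to 0.0712).

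The mitophagy receptors Bnip3 and Bnip3l (0.06 and -0.30, adjusted p = 0.939 and 0.516), the histone demethylase gene Kdm3a (-0.24, adjusted p = 0.11), Ankrd37 (-0.68, adjusted p = 0.0929), Ndrg1 (0.52, adjusted p = 0.279) and Mif (0.17, adjusted p = 0.583) were not called on the mean. With paired libraries Mif rose by 0.18 (adjusted p = 0.0367), and Kdm3a fell by 0.24 (0.0175), Bnip3l by 0.35 (0.0299) and Ankrd37 by 0.68 (0.0369). Ankrd37 had 28 to 148 counts a library, went from 3.16 and 6.70 to 1.5 and 2.84 CPM in wild type (-1.18, adjusted p = 0.195) with groups apart, and overlaps 2 other genes on the opposite strand. Ndrg1 went from 24.3 and 22.3 to 25.6 and 76.0 CPM in Ing4-/-, a change of 1.12 that was not called (adjusted p = 0.26) and came from the second library.

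Differences between the 2 libraries of a group were as large as the LPS response for many members, and they ran across the whole set. In wild type the second library was higher for 33 of 34 members untreated (median difference 0.51, log2) and for 30 of 34 after LPS (median 0.53), while among all genes 50.6% and 50.7% were higher in it and the median differences were 0.01. Of the members, 18 differed upwards by over 0.5 in each of these pairs, beside 11.8% and 13.9% of all genes. In Socs1-/- the first library was the higher one for 26 members untreated and 24 after LPS (medians -0.22 and -0.28), and in Ing4-/- the first was higher for 22 untreated and the second for 22 after LPS (medians -0.12 and 0.16). Bnip3 is the clearest case: the 2 wild-type libraries had 19.4 and 71.4 CPM untreated and 18.1 and 69.7 CPM after LPS. Neuron-type enolase Eno2 had 7.99 and 26.9 CPM and then 9.78 and 23.7 CPM, and Aldoc 62.4 and 148 CPM and then 64.9 and 148 CPM. In all 3 the second library was high and the first low in both treatments, with values close to each other across the treatments. Hif1a ran against this, with the second wild-type library the lower one in both treatments. What separates the libraries is not given in the labels and was not tested.

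**Figure D4:**
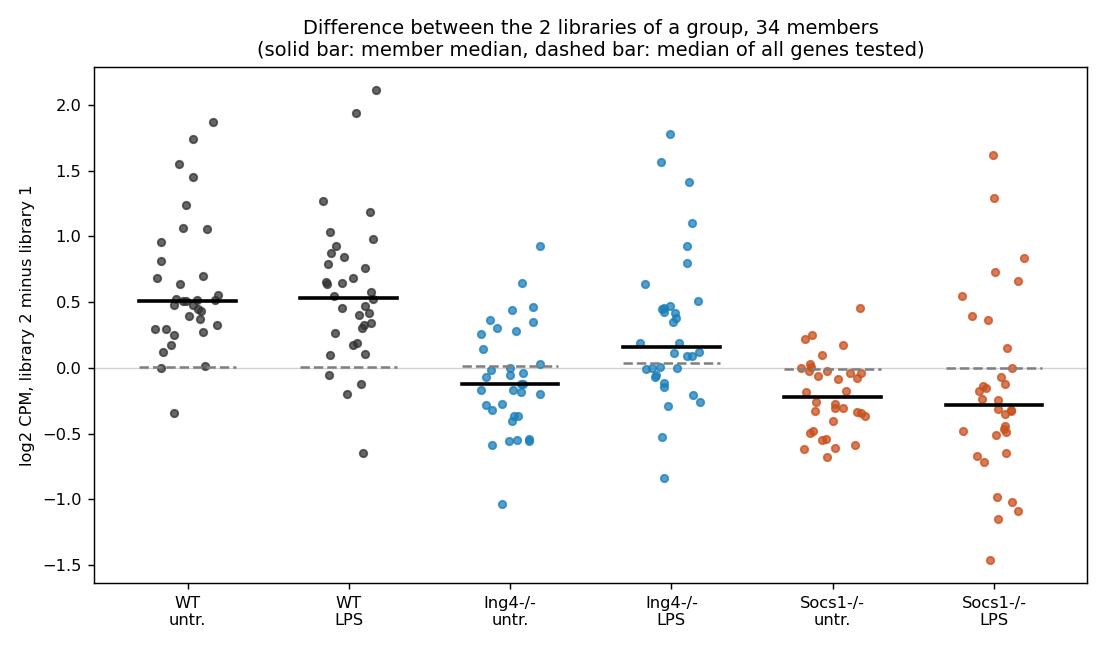
Difference in log2 CPM between the second and the first library of each group for the 34 members (points), with the member median (solid bar) and the median of all genes tested (dashed bar). Members sit above 0 almost throughout in both wild-type groups (medians 0.51 and 0.53), and their medians are negative in both Socs1-/- groups.

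Against wild type, most members had lower fitted levels in both knockouts, but none was called by edgeR with the filter on low counts. Of 34 members 0 were called in untreated Ing4-/- (0.141% of all genes called), untreated Socs1-/- (0.047%), LPS-treated Ing4-/- (0.102%) or LPS-treated Socs1-/- (0.0626%), with 4, 5, 5 and 5 members at an unadjusted p under 0.05, beside 5.25%, 5.15%, 7.09% and 10.6% of all genes. DESeq2 called 1, 1, 0 and 1, in each case Slc2a1, beside 0.757%, 0.627%, 0.928% and 1.8% of all genes. Without the filter on low counts edgeR called 5, 3, 1 and 3 members, beside 2.15%, 1.79%, 2.25% and 3.84% of all genes. Each of these counts includes P4ha2, which is the only member called in LPS-treated Ing4-/-. Its calls are not used as support, since its counts come from wild type alone. The authors' deposited tables of these 4 comparisons list 0 members. In the same order, 27, 30, 27 and 28 members had a negative change, and the medians were -0.40, -0.39, -0.43 and -0.35, against 0.01, 0.01, 0.02 and 0.02 for all genes. The 2 knockouts share their wild-type libraries in each treatment. The second wild-type library decided these medians: without it they were -0.12 (Ing4-/- untreated), -0.01 (Socs1-/- untreated), -0.10 (Ing4-/- after LPS) and -0.06 (Socs1-/- after LPS), with 22, 18, 19 and 19 members negative, and without the first wild-type library they were -0.61, -0.57, -0.63 and -0.60.

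**Figure D5:**
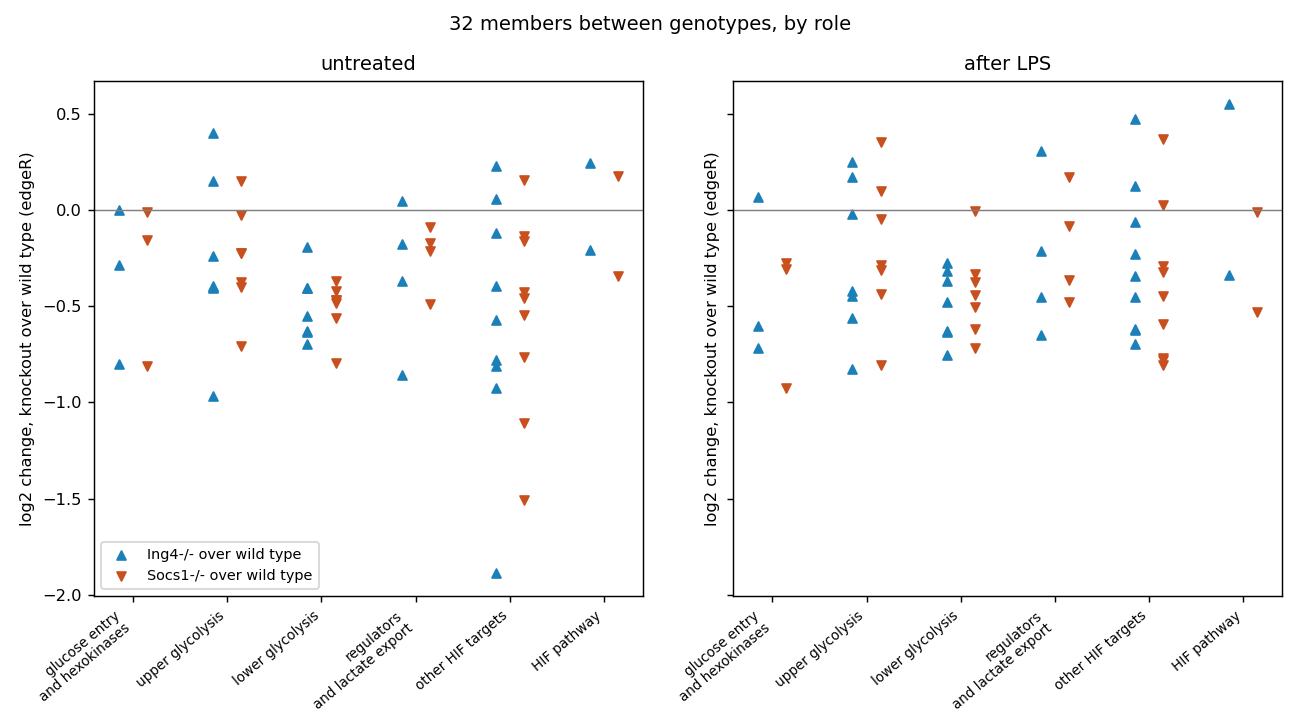
Fitted log2 change of each knockout over wild type for 32 members (Egln3 and P4ha2 are left out), grouped by role, untreated on the left and after LPS on the right. All 7 lower-pathway genes lie below 0 in each comparison, but mean Eno2 levels were 16.7 CPM in both LPS-treated Socs1-/- and LPS-treated wild type. No point was called by edgeR at an adjusted p under 0.05 (DESeq2 called Slc2a1 in 3 of the 4). The medians move to between -0.12 and -0.01 without the second wild-type library.

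Single genes described between genotypes are Slc2a1, Ndrg1, Vegfa and, as counts only, P4ha2 and Egln3. Slc2a1, singled out after its values were seen, was lower in both libraries of each knockout than in both of wild type, untreated and after LPS. The changes were -0.80 (Ing4-/-, edgeR adjusted p = 0.277), -0.81 (Socs1-/-, 0.355), -0.60 (Ing4-/- after LPS, 0.491) and -0.92 (Socs1-/- after LPS, 0.15), with DESeq2 adjusted p of 0.0204, 0.0238, 0.216 and 0.00161. Without the filter on low counts edgeR called it in LPS-treated Socs1-/- alone of these comparisons (adjusted p = 0.0131). Groups lay apart in the lower direction for 14, 11, 16 and 11 members in these comparisons, beside 20.1%, 20.4%, 18.2% and 18.0% of all genes.

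P4ha2, the second prolyl hydroxylase subunit gene, had 7 and 24 counts in untreated and 3 and 20 counts in LPS-treated wild type, and 0 counts in all 8 knockout libraries. In wild type the second library held most of the counts. Since the gene passed the filter through wild type alone, its difference is given as counts, with no fold. For the same reason its tests against wild type are not used as support, and both knockouts share the wild-type libraries. No comparison was called in the filtered fit (adjusted p 0.399 to 0.762), and all 4 were called only in the fit without the filter. Ndrg1, a stress and hypoxia marker, had untreated levels of 45.97 and 126 CPM in wild type, 24.3 and 22.3 CPM in Ing4-/- and 31.2 and 29.4 CPM in Socs1-/-, with groups apart. Its changes were -1.88 (adjusted p = 0.624) and -1.51 (adjusted p = 0.889). They were -0.98 and -0.60 without the second untreated wild-type library. Each was called in 1 of 18 alternative fits, the one without the filter on low counts (edgeR adjusted p = 2.65e-10 and 1.70e-06). Vegfa changed by -1.11 on the log2 scale in untreated Socs1-/- (adjusted p = 0.948), with groups apart. This change was likewise called in 1 of 18 alternative fits, the one without the filter (edgeR adjusted p = 0.00613). Egln3, at 16 and 9 counts in untreated Socs1-/- against 2 and 5 in wild type, went the other way. It passed the filter through untreated Socs1-/- alone, so its difference is also given as counts, with no fold.

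Genes of the same pathways outside the 34 were read in the same fit. Of 12 tested HIF pathway components, 2 rose after LPS on the mean of the genotypes and 0 fell: Cited2, a competitor for the HIF coactivators (0.94, edgeR adjusted p = 0.00488), and the elongin C gene Eloc (0.36, adjusted p = 0.00881). Of 33 other hypoxia genes 7 rose and 3 fell. Those that rose include Ier3 (4.04, adjusted p = 4.62e-06), the lipid droplet gene Hilpda (2.04, adjusted p = 0.000178) and the adrenomedullin gene Adm (3.45, adjusted p = 0.00126), and the chemokine receptor gene Cxcr4 (-4.87, adjusted p = 0.002), Angptl4 (-2.47, adjusted p = 0.00115) and Ppfia4 (-2.0, adjusted p = 0.0173) fell. Ier3, Hilpda and Adm changed by more than Slc2a1, and the median over the list was -0.08.

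Of 23 other glucose, lactate and pyruvate genes 1 rose, Dld (0.39, adjusted p = 0.0132), a subunit shared by the mitochondrial dehydrogenase complexes, and 5 fell. Among these were Pdp1 (-1.18, adjusted p = 0.00531), which activates pyruvate dehydrogenase, its inhibitor Pdk2 (-1.66, adjusted p = 0.0159), Pfkfb2 (-0.82, adjusted p = 0.00578) and Bpgm (-0.58, adjusted p = 0.0158). Of 9 pentose phosphate genes, the sedoheptulose kinase gene Shpk fell in each genotype, by 1.55 in wild type (adjusted p = 0.034), 1.49 in Ing4-/- (0.0244) and 1.61 in Socs1-/- (0.0308), and Rpe rose by 0.53 on the mean (adjusted p = 0.024). Of 21 citric acid cycle genes 1 fell, Idh1 (-0.83, adjusted p = 0.0208). Against the 33.2% of all genes called, the shares of the lists lay at 16.7% (HIF pathway), 30.3% (other hypoxia genes), 26.1% (other glucose genes), 22.2% (pentose phosphate) and 4.76% (citric acid cycle). With paired libraries, beside 51.7% of all genes, 4 rose and 1 fell of the HIF pathway components, 10 rose and 5 fell of the other hypoxia genes, 3 rose and 7 fell of the other glucose genes, 1 rose and 2 fell of the pentose phosphate genes, and 0 rose and 4 fell of the citric acid cycle genes. Without the first LPS-treated Socs1-/- library, beside 41.7%, these counts were 4 and 0, 8 and 6, 2 and 6, 1 and 1, and 0 and 2 in the same order. In bulk RNA, fewer responding cells and less RNA per cell cannot be told apart for any of these changes.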

How the data were processed

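The 12 RAW264.7 libraries hold RNA (stranded poly(A) libraries, single reads of 75 bases, per the labels' protocols). The authors deposited unscaled read counts per Ensembl gene. Their tables of changed genes give a log2 change and an adjusted p-value, per the file headers. The submitters' processing notes name FastQC, HISAT, StringTie, HTSeq and DESeq2; no source used here gives versions, strand setting or shrinkage. The notes name the human build GRCh38 and the treatment text names HEK293T, but the identifiers are mouse, and 1278 of 1345 deposited gene positions (95.02%) equal those of GRCm38 (GENCODE M21), used here.

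Counts were fitted in R 4.3.3 with edgeR 4.0.16: filterByExpr (12771 genes), TMM scaling, 1 mean for each of the 6 groups, robust quasi-likelihood F-tests, Benjamini-Hochberg adjustment over all tested genes, called at 0.05. The biological coefficient of variation was 0.289. SE was taken as |log2| divided by the square root of F. Levels are TMM-scaled CPM, and CPM per kb of union exon length between genes. The fitting was tested on simulated counts. Alternatives were DESeq2 1.42.0, other scalings, no filter, only the compared groups, leaving out each library, and replicate blocks. Same-numbered libraries of a genotype deviated together (correlations 0.447, 0.601 and 0.565 between untreated and LPS, and -0.129 to 0.156 between genotypes). The fit with that pairing therefore stands beside each LPS count it moves. The labels do not state it, and it was chosen from these counts. Where 1 library is left in a group, it is assumed to vary like the others.

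Members and lists were chosen with earlier results of these data known. All members are named with levels or changes. Fitted changes are given for members called with all libraries or without the first LPS-treated Socs1-/- library, and for uncalled ones of at least 1 (log2) whose groups lie apart. Egln3 and P4ha2 are excepted and given as counts. Other genes are named where called, up to 4 a list and direction, except 1 gene that is not reported here. Promoter windows are from RefSeq (GRCm38.p6), where 32 of 34 members matched (not Ndrg1 and Bnip3l). Protein identity between isozymes was not analysed here.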

Additional observations from a re-analysis of the deposited data

How the results depend on the processing

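Counts of members called depended on the filter on low counts, the pairing, the model and single libraries. DESeq2 called 3 members for LPS in wild type, beside 1415 of 12340 genes. Against wild type it called 1 each in untreated Ing4-/- (0.757% of all genes), untreated Socs1-/- (0.627%) and LPS-treated Socs1-/- (1.8%). Without a filter on low counts, 4, 12 and 4 members were called for LPS in wild type, Ing4-/- and Socs1-/-, beside 2080, 2588 and 1462 of 23947 genes. In that fit 5, 3, 1 and 3 were called for untreated Ing4-/-, untreated Socs1-/-, LPS-treated Ing4-/- and LPS-treated Socs1-/- against wild type. The shares of all genes were 2.15%, 1.79%, 2.25% and 3.84%. Each of these member counts includes P4ha2, whose calls are not used as support. With only the compared groups in the fit, 4 were called for LPS in wild type (2197 of 12070 genes) and 0 in Socs1-/- (0 of 11936). With a replicate block within genotype, 5 were called for LPS in wild type, 10 in Ing4-/- and 21 on the mean, beside 14.2%, 27.2% and 51.7% of all genes. A replicate block shared by all genotypes gave 1, 3 and 10, beside 445, 1250 and 4589 of 12771 genes. Leaving out 1 library gave 0 to 4 for LPS in wild type, 1 to 6 in Ing4-/-, 0 to 5 in Socs1-/-, 6 to 12 on the mean, 0 to 1 for LPS-treated Socs1-/- against wild type, and 0 for the other knockout comparisons and the 2 differences of response. The number called among all genes moved widely across these fits as well. For LPS in each genotype and on the mean, it was highest without the first LPS-treated Socs1-/- library. The member counts alone therefore do not show a shift particular to the members. The single reversal among named changes was Hk2 for LPS in Socs1-/- without its second LPS library (-0.0653, against 1.56 without the first). The cause of these shifts was not tested, beyond the lower number of libraries or genes by construction. Each group held 2 libraries, and the coefficient of variation shared by all genes was 0.289. Power to detect small changes of the trunk enzymes was not computed. With upper-quartile scaling and no pairing, the mean LPS changes were 0.06 (Gapdh), 0.07 (Eno1), 0.09 (Ldha) and 0.22 (Pgk1). Egln3 and P4ha2 were limited by depth.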
